A study of Mus musculus with 24 samples.

Results

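Chromosome 14 of the mouse was examined as a block in derivatives of the EO771 mammary carcinoma line, which was selected on its measured RNA levels: earlier results of these data had shown its genes to be lower in the cells expressing CCR7. Members were all genes annotated to chromosome 14 with at least 10 counts in 4 or more libraries of batch 1, which gave 436 of the 2534 chromosome 14 genes in a table of 55471 genes. Of these, 434 were also listed in the batch 2 table of 13915 genes, and 377 of the 436 were protein coding. The members spanned positions 7817957 to 122984035 of the chromosome (GRCm38/mm10). At the edge of the count rule, 9 members had a fourth-highest count of exactly 10 (64 to 105 counts over the 12 libraries of batch 1), and 7 genes left out had one of 9 (61 to 102 counts). All 12 libraries of batch 1 reached 10 counts for 380 members, whereas 8 members reached it in X2 libraries alone and none (0) in the libraries of a CCR7 group alone, so those 8, Loxl2 among them, entered through the group where they were high.

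EO771 is a mammary carcinoma line that arose in C57BL/6 mice, and every library came from EO771 cells grown in culture. X2 cells carried the retroviral pLNCX2 vector as the control, and CCR7 cells carried the same vector type with mouse Ccr7 cDNA. By the study's text, cells with tdTomato and CCR7 were enriched by FACS. The tdTomato reporter was also followed in X2 cells and tumours, and the study controlled its level between derivatives. X2-PDPN and CCR7-PDPN cells were sorted from the X2 and the CCR7-expressing cells for spontaneously high podoplanin (PDPN). By the column names of the count table and the study's text, the CCR7 cells were the PDPN-negative part of the same sort, so PDPN-high cells were compared with a PDPN-negative sort in the Ccr7 background and with the vector control in the other. X2, CCR7 and CCR7-PDPN were sequenced in batch 1, and X2, X2-PDPN and CCR7-PDPN in batch 2, with 4 libraries per group and 24 in all. The derivatives were sorted populations without clonal selection, 1 population per derivative, and the replicates were technical, so p-values measure the spread between libraries of the same population and not between independent transductions. Deposited counts per library totalled 22275468 to 35721027.

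Ccr7 averaged 0.35 CPM (counts per 1e+06 counts of the library) in X2 and 2791 CPM in CCR7 cells of batch 1, and Pdpn averaged 0.06 CPM in X2, 0.41 CPM in CCR7 and 25.3 CPM in CCR7-PDPN cells, so both labels were met. Vim and Krt8 were abundant, Krt18 reached at most 9 counts in a library, and markers of leukocytes (Ptprc, Cd3e, Itgam, Adgre1) reached at most 4 counts and those of endothelium (Pecam1, Cdh5, Prox1, Lyve1) at most 20. Of the fibroblast markers, Lum had no count and Dcn at most 3, while Pdgfra reached 6262 counts. X2 and CCR7-PDPN libraries with the same replicate number deviated together across the batches. The correlation of their deviations from the group means was 0.16 to 0.61 over 8 same-numbered pairs and -0.31 to 0.22 over 24 pairs with different numbers. The labels do not state a shared culture or RNA, and the X2 and CCR7-PDPN groups of batch 2 are therefore not treated as independent repeats of batch 1.

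Mouse chromosome 14 carries genes of unrelated function, with no pathway in common. They include genes for matrix enzymes such as Loxl2, which cross-links collagen and elastin, the glutamate dehydrogenase gene Glud1, the interferon-response factor gene Irf9 and the retinoblastoma gene Rb1. What such genes share is their place: they are replicated and passed on with the same chromosome, while each is transcribed from its own promoter or from one shared with a neighbour. Only RNA was measured here, so nothing is known of the DNA of these cells from these data.

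Some members lower than most of the chromosome lie next to each other on opposite strands and share a promoter stretch. Promoters are shown for such pairs, by Glud1 and by Wdhd1, and for the low members Lgals3 and Phf11d. The sequences were RefSeq promoters of GRCm38.p6, 250 bases before to 50 bases after a gene's start, and 294 of the 436 members had one. Capitals mark the motifs searched on both strands, which were the GC box GGGCGG, the CCAAT box, the TATA box TATAAA and an interferon-type repeat of GAAA, any 2 bases and GAAA. The Glud1 window (chr14:34310477-34310776, + strand) shared 291 of its 300 bases with that of Shld2, which starts on the other strand, and held 3 GC boxes.
Glud1: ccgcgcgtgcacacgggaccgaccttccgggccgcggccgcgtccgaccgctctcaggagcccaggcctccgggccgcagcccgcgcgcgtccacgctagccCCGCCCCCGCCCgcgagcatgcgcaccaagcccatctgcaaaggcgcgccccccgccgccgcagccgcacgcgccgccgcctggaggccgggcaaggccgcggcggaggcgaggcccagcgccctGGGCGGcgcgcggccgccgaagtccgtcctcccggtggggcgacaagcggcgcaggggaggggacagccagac
The Wdhd1 window (chr14:47276808-47277107, - strand) shared 162 of 300 bases with that of Socs4 on the other strand and held 2 GC boxes.
Wdhd1: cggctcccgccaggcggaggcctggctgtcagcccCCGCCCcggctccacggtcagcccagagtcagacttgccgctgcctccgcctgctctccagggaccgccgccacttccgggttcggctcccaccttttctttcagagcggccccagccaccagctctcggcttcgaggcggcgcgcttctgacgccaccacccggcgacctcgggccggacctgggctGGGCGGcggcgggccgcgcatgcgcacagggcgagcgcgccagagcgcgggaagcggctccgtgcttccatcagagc
The Lgals3 window (chr14:47373610-47373909, + strand), from the same stretch of the chromosome, held 2 GC boxes and 1 CCAAT.
Lgals3: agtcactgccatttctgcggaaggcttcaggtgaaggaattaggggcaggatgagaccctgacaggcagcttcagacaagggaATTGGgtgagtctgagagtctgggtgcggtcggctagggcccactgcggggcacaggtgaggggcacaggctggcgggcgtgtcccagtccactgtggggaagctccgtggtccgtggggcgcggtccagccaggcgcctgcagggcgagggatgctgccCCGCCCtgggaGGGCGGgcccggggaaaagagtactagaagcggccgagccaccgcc
The Phf11d window (chr14:59365441-59365740, - strand) belongs to a member that was low in all 3 derivatives compared with X2, and it held 2 CCAAT and no GC box (0).
Phf11d: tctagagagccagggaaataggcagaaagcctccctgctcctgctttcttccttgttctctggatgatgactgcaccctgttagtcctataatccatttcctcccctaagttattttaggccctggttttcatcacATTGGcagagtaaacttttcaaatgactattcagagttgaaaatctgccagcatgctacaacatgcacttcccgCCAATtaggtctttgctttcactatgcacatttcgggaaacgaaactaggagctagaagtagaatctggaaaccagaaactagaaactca
The GC content of these windows was 81.0% for Glud1, 74.3% for Wdhd1, 67.0% for Lgals3 and 43.3% for Phf11d. Over all 392 promoters of members, 57.4% held a GC box, compared with 62.4% of the promoters of genes tested in batch 1 and 35.7% of all promoters. CCAAT was found in 35.7% of member promoters and 38.2% of those of tested genes, the TATA box in 8.16% and 6.95%, and the GAAA repeat in 2.30% and 2.95%. These matches describe the letters only.

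Chromosome 14 was lower as a whole in every derivative that carried Ccr7. Its members took 2.98% to 3.00% of all counts in the X2 libraries of batch 1, compared with 2.05% to 2.11% in the CCR7 libraries. The CCR7-PDPN libraries of that batch were at 1.88% to 1.91%, and the groups did not overlap. In batch 2 the share was 2.99% to 3.00% in X2, 2.91% to 2.94% in X2-PDPN and 1.89% to 1.91% in CCR7-PDPN libraries. X2-PDPN thus lay close to X2, and CCR7-PDPN far below both. Against the X2 mean of the same batch, the median member with a mean of at least 100 counts was shifted by -0.47 ± 0.0055 on the log2 scale in CCR7 (SD, n = 4) and by -0.041 ± 0.0089 in X2-PDPN. For CCR7-PDPN the shift was -0.56 ± 0.018 in batch 1 and -0.57 ± 0.0043 in batch 2. These values chose the chromosome for study and are given as a description without a test.

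**Figure D1:**
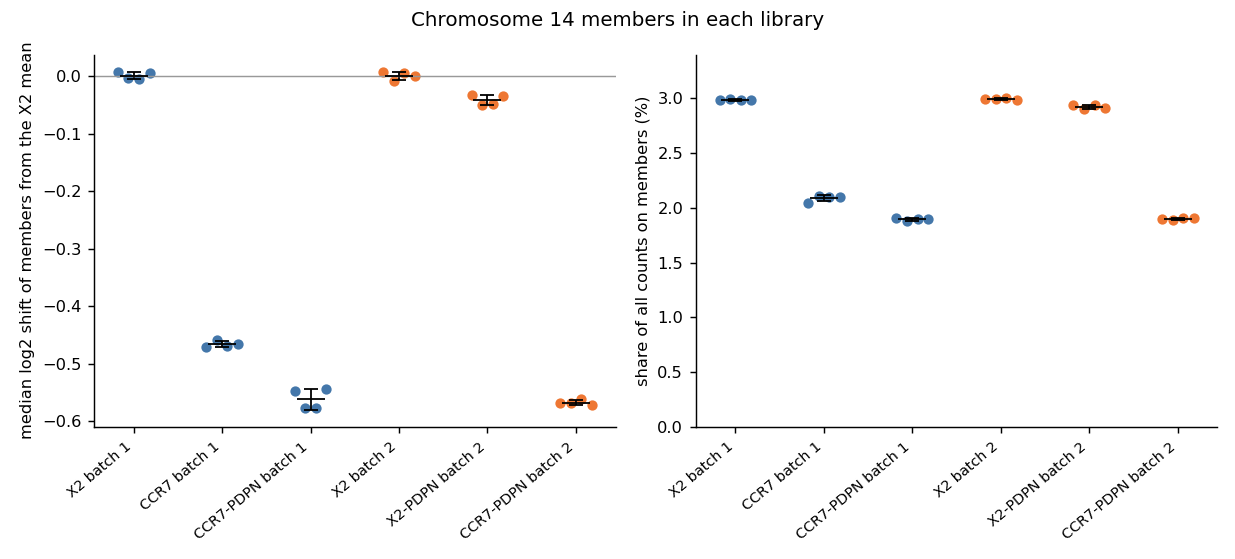
Chromosome 14 members in each library, as the median log2 shift from the X2 mean of the same batch (left) and the share of all counts in percent (right); points are libraries (blue batch 1, orange batch 2), and black bars are the mean and SD of 4 libraries. The share was 2.99% in X2, 2.92% in X2-PDPN, 2.09% in CCR7 and 1.90% in CCR7-PDPN cells on average.

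The lower level was spread over most members. In CCR7 cells compared with X2, 432 members were tested and the median log2 fold change was -0.45 (quartiles -0.62 and -0.29), with 399 members (92.4%) below 0. Compared with X2, CCR7-PDPN cells had medians of -0.57 in batch 1 and -0.58 in batch 2, and compared with X2-PDPN they had a median of -0.53. The same 3 comparisons had 92.8%, 92.9% and 93.2% of members below 0, whereas 49.3% to 50.7% of all genes tested lay below 0 over the 6 comparisons. In X2-PDPN compared with X2 the median was -0.039 (quartiles -0.17 and 0.13), with 244 of 424 members below 0. For CCR7-PDPN compared with CCR7 it was -0.11 (quartiles -0.25 and 0.01), with 315 of 432 below 0.

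Few members passed a 2-fold limit, because the common shift was smaller than 2-fold. By the quasi-likelihood test of edgeR, at a 2-fold change or more (log2 beyond 1) and a Benjamini-Hochberg p below 0.05, 39 members were called lower and 4 higher in CCR7 compared with X2 (3.18% and 3.3% of all 13261 genes tested were called so). For CCR7-PDPN compared with X2 the counts were 61 lower and 4 higher in batch 1 (background 5.36% and 4.09%) and 58 lower and 4 higher in batch 2 (5.67% and 3.96%). Against X2-PDPN they were 60 lower and 3 higher (6.4% and 2.76%). At an adjusted p under 0.05 with no fold limit, 342 members were lower and 13 higher in CCR7 compared with X2, where 25.2% and 24% of all genes tested were. For CCR7-PDPN compared with X2 these counts were 360 and 13 in batch 1 (30.6% and 30.3%) and 361 and 11 in batch 2 (32.8% and 32%), and for CCR7-PDPN compared with X2-PDPN 367 and 10 (32% and 31.2%). Nothing is drawn from the direction of these counts, since the chromosome was chosen for it. In addition, 8 members met the count rule through X2 libraries alone and none (0) through a CCR7 group alone, which adds to the lower side.

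The 10 Mb windows of the chromosome gave the same picture from end to end. All 13 windows had a median below 0 in CCR7 compared with X2, from -0.54 in the first window to -0.32 at 110 to 120 Mb. In CCR7-PDPN compared with X2 of batch 1 they ranged from -0.80 to -0.44, again with the lowest median in the first window, which holds 8 members. For CCR7-PDPN compared with X2 of batch 2, the first window and that at 110 to 120 Mb were again the ends of the range, at -0.85 and -0.42. Between CCR7-PDPN and CCR7 all 13 window medians also lay below 0, from -0.21 to -0.03, and in X2-PDPN compared with X2 11 of the 13 did, over a range of -0.22 to 0.07. Compared with X2-PDPN, CCR7-PDPN cells had all 13 window medians between -0.64 and -0.39.

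**Figure D2:**
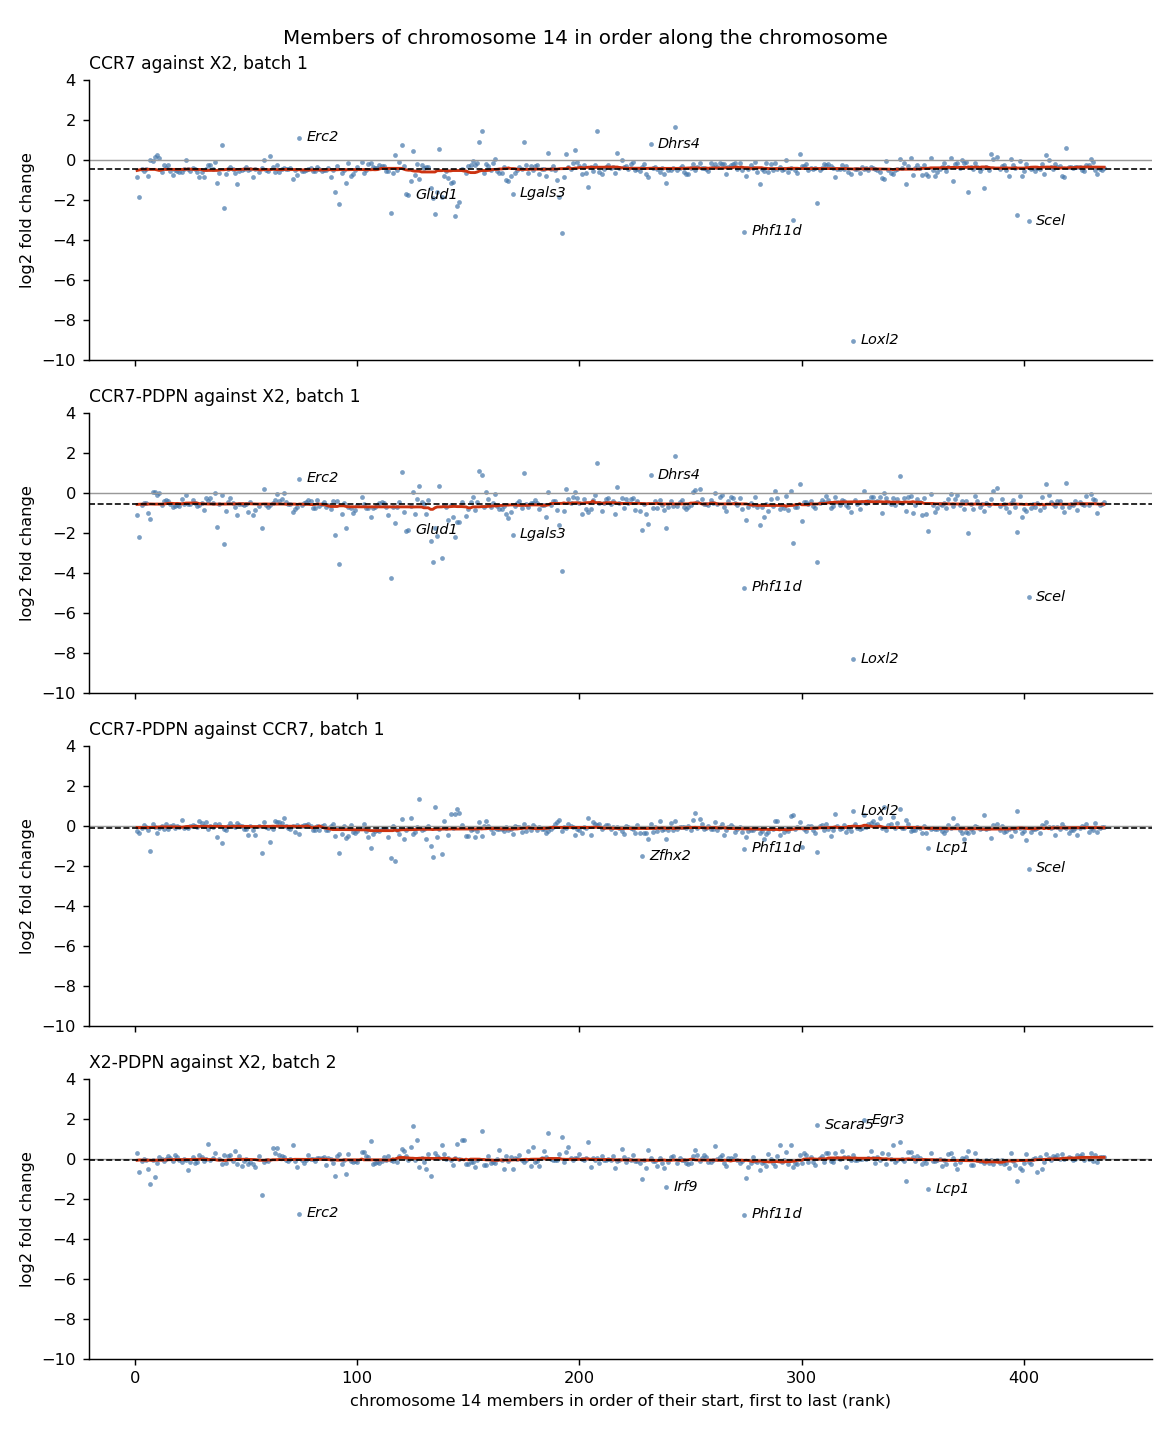
Log2 fold change of the members (vertical axis) in their order along chromosome 14 (horizontal axis, rank of the start) in 4 of the 6 comparisons, 1 panel each. Points are genes and the line is the running median of 41 neighbouring members. The line stays below 0 from the first to the last member in CCR7 and CCR7-PDPN compared with X2 of batch 1. It runs near 0 in the PDPN comparisons.

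Among the chromosomes, 14 stood apart by its median in the comparisons with Ccr7. In CCR7 compared with X2, 17 of the 19 other chromosomes had a median within 0.1 of 0. The lowest other median was -0.12 (chromosome 8) and the highest 0.33 (chromosome 9). The median of chromosome 8 hid a wide spread, with quartiles of -0.36 and 0.71. Of its 750 genes tested, 103 were called higher and 28 lower at 2-fold, compared with 4 higher and 39 lower on chromosome 14. In CCR7-PDPN compared with X2 of batch 1, chromosome 8 had 131 genes called higher and 44 lower. For CCR7-PDPN compared with X2 of batch 1, the lowest other median was -0.18 (chromosome 18) and chromosome 9 was at 0.32. In the PDPN comparisons chromosome 14 lay within the range of the others, which was -0.23 to 0.14 in CCR7-PDPN compared with CCR7, where its median of -0.11 was lower than that of each other chromosome but 18, and -0.20 to 0.21 in X2-PDPN compared with X2.

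**Figure D3:**
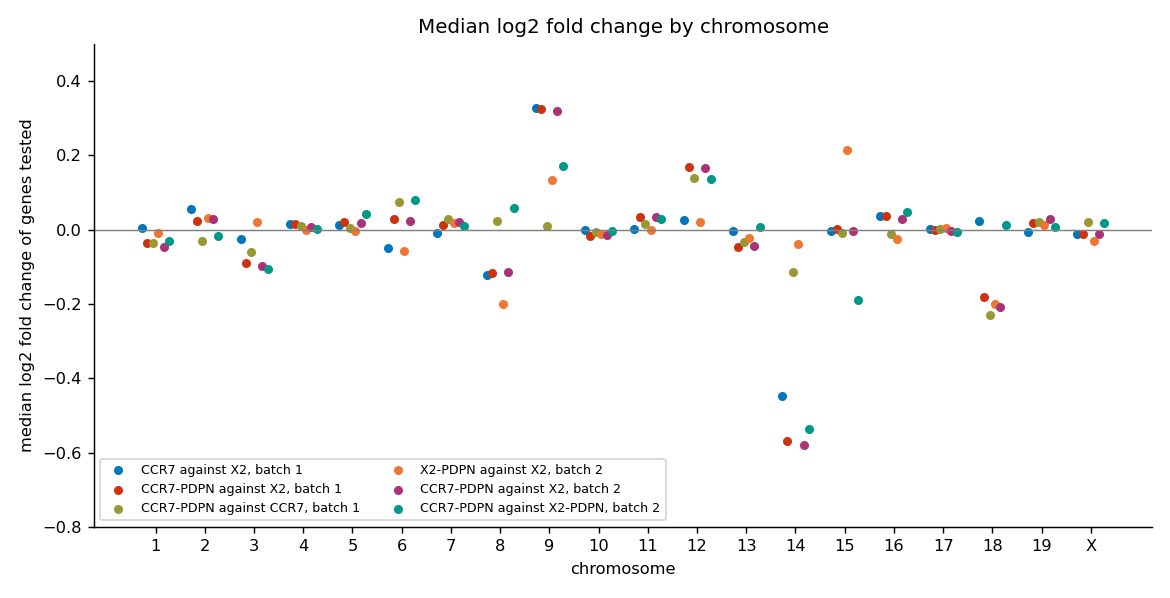
Median log2 fold change of the genes tested on each chromosome (horizontal axis), with 1 coloured point for each of the 6 comparisons. Chromosome 14 lies between -0.58 and -0.45 in the 4 comparisons of a cell type carrying Ccr7 with one that lacks it, and chromosome 9 is the highest in these, between 0.17 and 0.33.

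The median shift was alike at low and high counts. With the members split by mean count into 3 parts of like size, the medians in CCR7 compared with X2 were -0.43, -0.48 and -0.44 from the least to the most counted, while the interquartile range fell from 0.76 to 0.24 and 0.22. The 376 protein-coding members had a median of -0.46, the 41 other RNA genes -0.34 and the 15 pseudogenes -0.09. The pseudogenes averaged 10.0 to 69.3 counts per library and can share reads with their parent genes on other chromosomes. In the middle of the distribution, Tpt1 (translationally controlled tumour protein) was at -0.48 ± 0.03, Vdac2 (the mitochondrial outer membrane channel) at -0.44 ± 0.03 and the ribosomal protein gene Rps24 at -0.57 ± 0.04 in CCR7 compared with X2. Among protein-coding members, neighbours that start head to head within 1000 bases of each other differed less than other adjacent ones. The median absolute difference in log2 fold change was 0.16 over 36 such pairs and 0.24 over 338 other pairs in this comparison. The corresponding values were 0.21 and 0.34 in CCR7-PDPN compared with X2 of batch 1. In batch 2 they were 0.16 and 0.31 in CCR7-PDPN compared with X2, and 0.21 and 0.26 compared with X2-PDPN. The pairs were not matched by their counts, and whether counts play a part was not tested.

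Loxl2 was the member farthest from the rest. The gene (ENSMUSG00000034205, chr14:69609068-69695834, + strand) had 1116, 936, 1259 and 1089 counts in the X2 libraries of batch 1, 1, 1, 4 and 2 counts in CCR7 and 2, 5, 5 and 2 counts in CCR7-PDPN libraries. In batch 2 it had 1086, 1070, 1211 and 1124 counts in X2, 1371, 1619, 1313 and 1190 counts in X2-PDPN and 4, 6, 3 and 2 counts in CCR7-PDPN libraries. No library without Ccr7 cDNA held fewer than 936 counts, and no library with it more than 6. The gene marks this set and met the count rule through X2 libraries alone. This separation and the folds that follow therefore only describe these libraries. Scaled by library size, Loxl2 was 570-fold higher in X2 than in CCR7 (95% exact interval 289 to 1322, for counting error only), 341-fold higher in X2 than in CCR7-PDPN of batch 1 (203 to 624) and 338-fold higher in X2-PDPN than in CCR7-PDPN of batch 2 (205 to 604). The gene was read in X2 cells at 26.8 TPM (a level scaled to gene length), compared with 49.6 TPM for Loxl4 and 4.55 TPM for Loxl3 in the same libraries.

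The genes around Loxl2 were lower than in X2 by less than 1 on the log2 scale. Slc25a37 (mitochondrial iron import), 324 kb before it, was at -0.69 in CCR7 and -0.97 in CCR7-PDPN compared with X2 of batch 1, and R3hcc1, 1.47 kb after its end, was at -0.44 and -0.36. Chmp7 (membrane remodelling) was at -0.46 and -0.56, and Tnfrsf10b (a TRAIL receptor) at -0.64 and -0.80. Of the other lysyl oxidase genes, which lie on other chromosomes, Lox had no count in any library of batch 1, Loxl1 reached at most 6 counts in a library, and Loxl3 and Loxl4 were at 0.27 and -0.07 in CCR7 compared with X2 and at 0.59 and -0.11 in CCR7-PDPN compared with X2. In X2-PDPN compared with X2, Loxl2 rose by 0.20 ± 0.04 on the log2 scale (adjusted p = 4.19e-05 in edgeR), with X2-PDPN at a mean of 44.6 CPM and X2 at 39.0 CPM. Between CCR7 and CCR7-PDPN no fold is given, because most of these libraries held 3 counts or fewer.

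**Figure D4:**
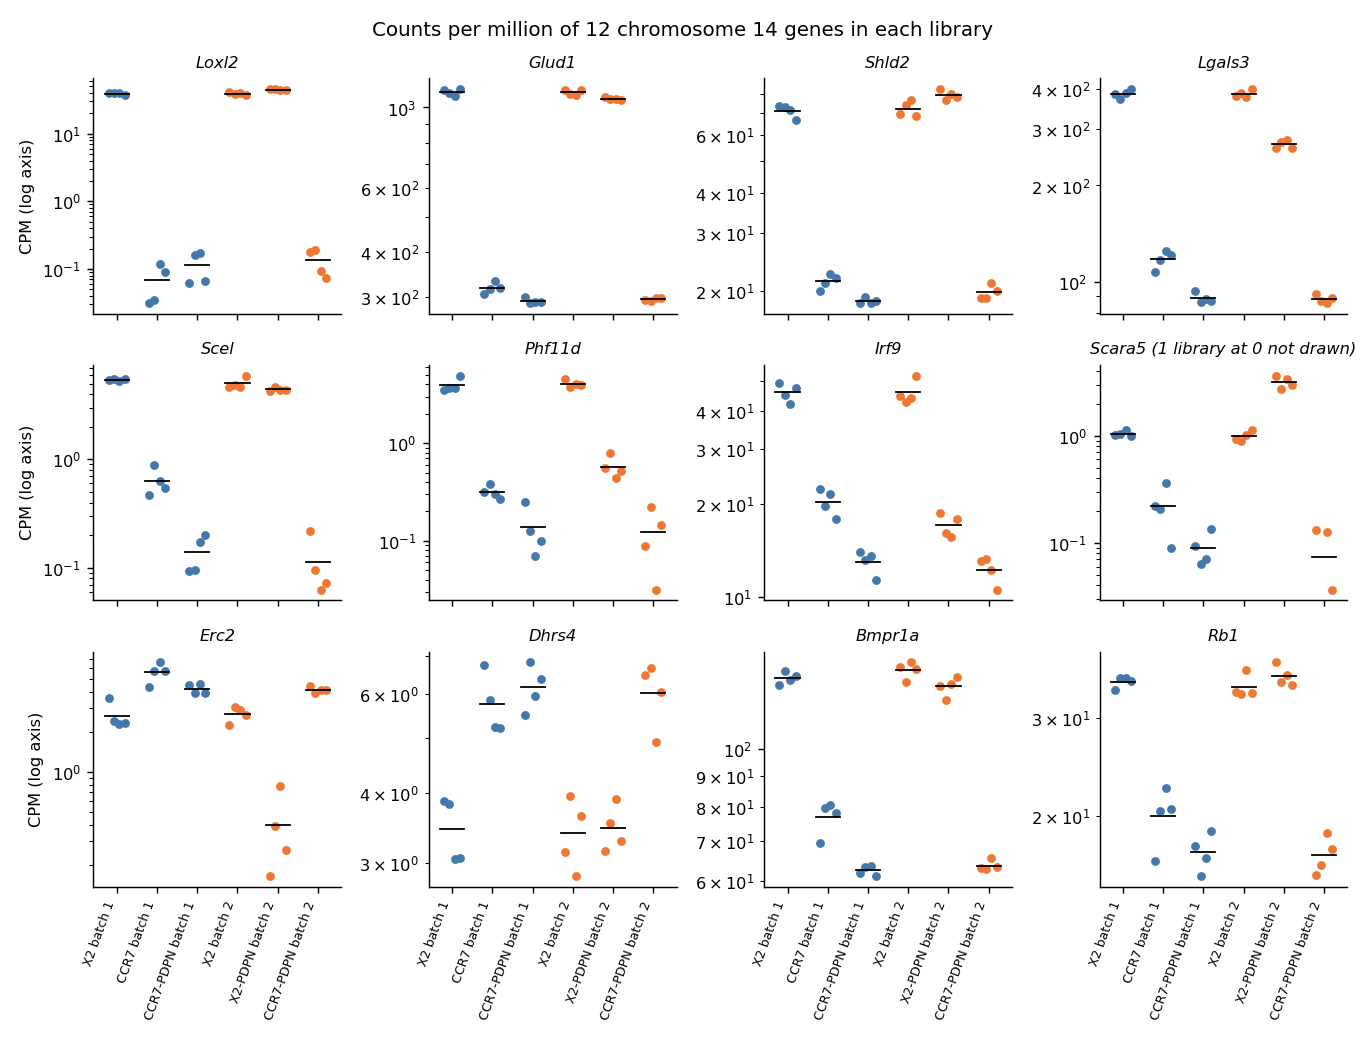
CPM (log axis, scaled to each gene) of 12 chromosome 14 genes in each library by group; points are libraries (blue batch 1, orange batch 2) and bars the mean of 4. Loxl2 averaged 39.1 CPM in X2 and 0.0688 CPM in CCR7 cells of batch 1, Phf11d and Irf9 are also low in X2-PDPN, Dhrs4 is higher with Ccr7, and Bmpr1a and Rb1 are lower with Ccr7 and near X2 in X2-PDPN.

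Glud1 and Shld2 formed the next group. Glud1 encodes the mitochondrial enzyme that converts glutamate to 2-oxoglutarate, and Shld2 a subunit of the shieldin complex that protects broken DNA ends. Glud1 was at 1114, 1094, 1077 and 1123 CPM in the X2 libraries of batch 1, at 306, 317, 333 and 319 CPM in CCR7 and at 301, 289, 291 and 292 CPM in CCR7-PDPN libraries. Shld2 was at 73.8, 73.4, 71.6 and 66.7 CPM in X2, at 19.96, 21.1, 22.4 and 21.9 CPM in CCR7 and at 18.4, 19.1, 18.3 and 18.6 CPM in CCR7-PDPN libraries. Neither gene had overlapping values between X2 and the cells carrying Ccr7. The log2 fold changes in CCR7 compared with X2 were -1.77 ± 0.03 for Glud1 and -1.72 ± 0.05 for Shld2 (± SE), and in CCR7-PDPN compared with X2 -1.88 ± 0.03 and -1.91 ± 0.05. In batch 2, X2-PDPN libraries held 1050 to 1066 CPM of Glud1 and 76.9 to 83.0 CPM of Shld2, and CCR7-PDPN libraries 294 to 299 CPM and 19.0 to 21.1 CPM.

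The pair lay below the members around it. Bmpr1a, a type I receptor of bone morphogenetic proteins, was at -0.76 in CCR7 and -1.05 in CCR7-PDPN compared with X2 of batch 1, Wapl (cohesin release) at -0.28 and -0.47, and Ldb3 (a Z-disc protein) at -0.23 ± 0.14 and -0.30 ± 0.14. Gprin2, on the other side, was at 0.72 ± 0.29 and 1.04 ± 0.28 (adjusted p = 0.0474 and 0.00301 in edgeR). Sncg (gamma-synuclein), between Glud1 and Bmpr1a, was at 0.44 ± 0.33 and 0.03 ± 0.35 and passed neither test (adjusted p = 0.281 and 0.951). Both had means of 1.00 CPM or less in these groups. Of the genes next to the pair, also low in counts, Gm3219 was at -1.08 and -0.68 (adjusted p = 0.017 and 0.0869). Gm49201 was at -0.31 and -0.95 (adjusted p = 0.165 and 0.000274). Both Glud1 and Shld2 start from the shared promoter stretch shown above. In X2-PDPN compared with X2, Shld2 rose by 0.15 ± 0.04 (adjusted p = 0.000554), and Glud1 did not pass the test at -0.050 ± 0.024 (adjusted p = 0.0693), although it passed without X2 replicate 3 (adjusted p = 0.0343) and with DESeq2 (adjusted p = 0.022).

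A further stretch with several low members lay around Lgals3 (chr14:47367751-47386160). Lgals3 encodes galectin-3, a secreted lectin that binds cell surface sugars, and was at 388, 372, 390 and 400 CPM in X2, 107, 117, 125 and 121 CPM in CCR7 and 93.4, 86.7, 88.4 and 87.3 CPM in CCR7-PDPN libraries of batch 1. Its log2 fold changes were -1.70 ± 0.04 in CCR7 and -2.09 ± 0.04 in CCR7-PDPN compared with X2. Before it on the chromosome, Wdhd1 (a replication fork protein) was at -0.99 and -1.05, Socs4 (a suppressor of cytokine signalling) at -1.06 and -1.27 and Mapk1ip1l at -0.81 and -0.98. On the outer sides, Gch1 (the first enzyme of tetrahydrobiopterin synthesis) was at -0.38 and -0.64 and Dlgap5 (a spindle protein) at -0.66 and -0.67. In batch 2, Lgals3 was at 378 to 399 CPM in X2, 261 to 277 CPM in X2-PDPN and 85.7 to 91.5 CPM in CCR7-PDPN libraries. It fell by 0.51 ± 0.03 in X2-PDPN compared with X2 (adjusted p = 1.17e-20) and by 0.39 ± 0.04 in CCR7-PDPN compared with CCR7 (adjusted p = 3.52e-07).

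With Loxl2, Glud1, Shld2 and Lgals3, the members that lay more than 1 log2 unit below the chromosome's median in CCR7 compared with X2 were Stab1 and Scel, among the 345 members whose average log2 CPM reached 1. Stab1, a scavenger receptor gene, was at -1.61 ± 0.09 and Scel, which encodes sciellin of the cornified envelope, at -3.07 ± 0.16. Scel had 155, 132, 163 and 160 counts in X2, 15, 26, 21 and 12 counts in CCR7 and 3, 3, 5 and 6 counts in CCR7-PDPN libraries of batch 1. CCR7 thus lay below X2, and CCR7-PDPN below CCR7, without overlap between the 3 groups. In CCR7-PDPN compared with X2 of batch 1, 11 members were that far below, adding Dnah1, Zfhx2, Irf9, Spata13 and Lcp1 and leaving all 6 of the first comparison in place. Of the 432 members tested at any level, 83.3% lay within 0.5 of the chromosome's median in CCR7 compared with X2, and 78.7% in CCR7-PDPN compared with X2.

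A few members were higher than in X2 against the course of the chromosome. Erc2, which encodes a scaffold protein of nerve terminals, was at 3.58, 2.39, 2.28 and 2.34 CPM in X2, at 4.34, 5.68, 6.65 and 5.75 CPM in CCR7 and at 4.47, 3.91, 4.58 and 3.91 CPM in CCR7-PDPN libraries of batch 1. Dhrs4, a retinal and carbonyl reductase gene, was at 3.86, 3.81, 3.05 and 3.06 CPM in X2, at 6.75, 5.85, 5.24 and 5.21 CPM in CCR7 and at 5.50, 6.83, 5.94 and 6.38 CPM in CCR7-PDPN libraries. For both genes every library with Ccr7 lay above every X2 library. The log2 fold changes in CCR7 compared with X2 were 1.10 ± 0.15 for Erc2 and 0.77 ± 0.11 for Dhrs4, and in CCR7-PDPN compared with X2 0.70 ± 0.15 and 0.88 ± 0.11. Sox7, an endothelial transcription factor gene, was at 0.28 and 0.44 in these comparisons, and Tpm3-rs7, a copy of the tropomyosin gene Tpm3 that can share its reads, at 0.25 and 0.45.

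By role, the members of every list were mostly lower in CCR7 cells. The lists were drawn up with earlier results of these data known, and the counts are set beside the 25.2% of all genes tested that were lower at an adjusted p under 0.05 in CCR7 compared with X2. Of 19 matrix and adhesion members (22 genes listed), all 19 passed the test as lower, with a median log2 fold change of -0.64, compared with -0.45 over all members. They included Plau (urokinase) at -1.22, Ctsb (cathepsin B) at -0.64 and Mmp14 (a membrane-bound collagenase) at -0.37. Of 13 interferon and immune members (19 listed), all 13 were lower with a median of -0.80, among them Psme1 and Psme2 (proteasome activator subunits) at -0.47 and -0.40. The purine nucleoside phosphorylase genes Pnp and Pnp2 were at -1.01 and -1.87, but these copies lie side by side and can share reads, so each value is uncertain.

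Rb1 and Bmpr1a, both below the members' first quartile in CCR7 and CCR7-PDPN compared with X2, are given by library. Rb1, the retinoblastoma tumour suppressor gene, was at 33.7, 35.5, 35.5 and 35.0 CPM in X2, 16.6, 20.4, 22.4 and 20.6 CPM in CCR7 and 17.6, 15.5, 16.8 and 18.7 CPM in CCR7-PDPN libraries of batch 1. Bmpr1a was at 129 to 136 CPM in X2, 69.4 to 80.6 CPM in CCR7 and 61.0 to 63.6 CPM in CCR7-PDPN libraries. X2-PDPN libraries held 34.4 to 37.9 CPM of Rb1 and 121 to 133 CPM of Bmpr1a, and so overlapped X2 of batch 2, which held 33.2 to 36.7 CPM and 129.9 to 140.3 CPM.

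The lists of housekeeping roles lay nearer to the chromosome's median. All 22 cell cycle and genome maintenance members were lower with a median of -0.48, including Rb1 at -0.78 ± 0.07, Top2b (a DNA topoisomerase) at -0.54 and Parp2 (DNA repair) at -0.48. The 22 mitochondrial and metabolic members (23 listed) had a median of -0.45, and Fdft1, squalene synthase, was at -0.40. Of 20 protein and RNA members, 18 were lower and 2 did not pass the test, with a median of -0.43. In this list the splicing factor gene Hnrnpc was at -0.15 and the importin gene Ipo4 at -0.53. Of the 11 development and signalling members (23 listed), 8 were lower, 1 was higher and 2 did not pass, with a median of -0.52. The one that was higher was Sox7.

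PDPN-sorted cells were also compared for differences of the members with PDPN. The CCR7-PDPN, CCR7 and X2 libraries used here also belong to the data that chose the chromosome, so these counts are not independent of that choice. In X2-PDPN compared with X2, 8 members were called lower and 6 higher at 2-fold, where 1.55% and 3.51% of all genes tested were called so. At an adjusted p under 0.05 alone, 130 members were lower (28.5% of all genes) and 104 higher (28.2%). In CCR7-PDPN compared with CCR7, 13 members were called lower and 1 higher at 2-fold (2.6% and 0.664% of all genes), and without the fold limit 172 were lower and 33 higher (20.7% and 20.9%). All 4 X2-PDPN libraries lay below all 4 X2 libraries for 135 members (27.3% of all genes) and above them for 87 (23.9%). For comparison, all 4 CCR7-PDPN libraries lay below all 4 X2-PDPN libraries for 360 members (29.7% of all genes).

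Irf9, the DNA-binding subunit of the interferon-stimulated factor ISGF3, was low with both PDPN and Ccr7. It was at 44.7, 42.8, 44.0 and 51.8 CPM in X2, 18.7, 16.1, 15.6 and 17.9 CPM in X2-PDPN and 13.1, 13.3, 12.2 and 10.6 CPM in CCR7-PDPN libraries of batch 2. In batch 1 it was at 42.1 to 49.1 CPM in X2, 17.9 to 22.3 CPM in CCR7 and 11.4 to 13.98 CPM in CCR7-PDPN libraries. No 2 groups overlapped within a batch. Irf9 fell by 1.42 ± 0.07 in X2-PDPN compared with X2 (adjusted p = 9.12e-12) and by 0.64 ± 0.07 in CCR7-PDPN compared with CCR7 (adjusted p = 1.31e-06). The difference between these PDPN effects was 0.78 ± 0.12 (adjusted p = 5.84e-06).

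Several other members of the interferon and immune list also fell with PDPN. Phf11d, a PHD finger gene, had 122, 105, 124 and 118 counts in X2 and 17, 28, 13 and 14 counts in X2-PDPN libraries of batch 2, and fell by 2.78 ± 0.19 (adjusted p = 4.35e-17). Between CCR7 (10, 11, 10 and 6 counts) and CCR7-PDPN cells (8, 4, 2 and 3 counts) it fell by 1.15 ± 0.40 (adjusted p = 0.026), a call that was lost without CCR7 replicate 2 or without CCR7-PDPN replicate 2, 3 or 4 (highest adjusted p = 0.0782). Its neighbour Phf11c, a related copy with which it can share reads, fell by 0.98 ± 0.27 in X2-PDPN compared with X2 (adjusted p = 0.00206). Psme1 fell by 0.35 ± 0.03 (adjusted p = 4.69e-12) and Gch1 by 0.51 ± 0.04 (adjusted p = 2.5e-13) in the same comparison. In all, 7 of the 13 members of this list were lower, 2 higher (Ripk3 and Khnyn) and 4 not past the test in X2-PDPN compared with X2, where 28.5% of all genes were lower and 28.2% higher. In CCR7-PDPN compared with CCR7, 7 were lower, 3 higher and 3 not past it, where 20.7% and 20.9% of all genes were lower and higher.

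In the housekeeping lists, X2-PDPN cells had 5 cell cycle and genome maintenance members lower, 7 higher and 10 not past the test, compared with 10, 0 and 12 in CCR7-PDPN compared with CCR7. Of the mitochondrial and metabolic members, 10 were lower, 6 higher and 6 not past it with PDPN in X2 cells, and 15, 3 and 4 in CCR7 cells. Of the 20 protein and RNA members, 8, 2 and 10 were lower, higher and not past it in X2 cells, and 14, 0 and 6 in CCR7 cells. The list medians stayed between -0.15 and 0.05 in both comparisons, and these counts stand beside 28.5% and 20.7% of all genes lower in the 2 comparisons.

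Of the matrix and adhesion members, 8 were lower, 8 higher and 3 not past the test in X2-PDPN compared with X2 (28.5% and 28.2% of all genes were lower and higher), and 8 were lower, 4 higher and 7 not past it in CCR7-PDPN compared with CCR7 (20.7% and 20.9%). Lcp1, the actin-bundling protein L-plastin, fell by 1.51 ± 0.09 (adjusted p = 3.16e-18) from 11.4 to 13.2 CPM in X2 to 3.53 to 4.57 CPM in X2-PDPN libraries. With Ccr7, between CCR7 and CCR7-PDPN, it fell by 1.12 ± 0.15 (adjusted p = 1.25e-05). Stab1 fell by 0.83 ± 0.08 (adjusted p = 5.78e-13) in X2-PDPN and by 0.51 ± 0.11 (adjusted p = 0.000892) in CCR7-PDPN cells. Scara5, a ferritin receptor gene, had 25, 25, 31 and 34 counts in X2, 111, 98, 100 and 81 counts in X2-PDPN and 3, 0, 4 and 1 counts in CCR7-PDPN libraries of batch 2. It rose by 1.68 ± 0.18 with PDPN in the cells without Ccr7 (adjusted p = 4.89e-11).

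Fdft1, Egr3, Nfatc4 and Sall2 rose with PDPN in both backgrounds. Fdft1, of the mitochondrial and metabolic list, was chosen after its values were seen, and the others are of the development and signalling list. Of the 11 members of that list, 4 were lower, 5 higher and 2 not past the test in X2-PDPN compared with X2. In CCR7-PDPN compared with CCR7, 5 were lower, 3 higher and 3 not past it. Of all genes, 28.5% and 28.2% were lower and higher in the first comparison and 20.7% and 20.9% in the second. Fdft1 rose by 0.70 ± 0.04 in X2-PDPN compared with X2 (adjusted p = 1.81e-21) and by 0.47 ± 0.05 in CCR7-PDPN compared with CCR7 (adjusted p = 1.32e-07). It was at 59.3 to 64.3 CPM in X2, 43.6 to 52.6 CPM in CCR7 and 61.7 to 66.0 CPM in CCR7-PDPN libraries of batch 1, so that X2 and CCR7-PDPN overlapped and CCR7 lay below both. Egr3, an immediate early transcription factor gene, was at 1.04, 1.58, 1.88 and 1.47 CPM in X2, 5.74, 5.65, 5.76 and 5.59 CPM in X2-PDPN and 1.40, 1.98, 1.29 and 1.601 CPM in CCR7-PDPN libraries of batch 2. It rose by 1.93 ± 0.13 in X2-PDPN compared with X2 (adjusted p = 1.8e-16) and by 0.52 ± 0.19 in CCR7-PDPN compared with CCR7 (adjusted p = 0.0355). The latter call was lost with DESeq2 (adjusted p = 0.0669) and without CCR7 replicate 2 or 3 or CCR7-PDPN replicate 1, 3 or 4 (highest adjusted p = 0.126). Nfatc4, a calcineurin-regulated transcription factor gene, rose by 0.45 ± 0.09 (adjusted p = 1.43e-05) and 0.66 ± 0.10 (adjusted p = 2.38e-05), and Sall2, a zinc finger gene, by 0.83 ± 0.07 (adjusted p = 2.28e-14) and 0.39 ± 0.10 (adjusted p = 0.00324).

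Scel, Msra and Sema3g fell further with PDPN in the cells carrying Ccr7 than in those without. Scel fell by 2.14 ± 0.32 in CCR7-PDPN compared with CCR7 (adjusted p = 1.91e-05) and was at -0.17 ± 0.11 in X2-PDPN compared with X2 (adjusted p = 0.176). Msra, a methionine sulfoxide reductase gene, fell by 1.07 ± 0.09 (adjusted p = 1.08e-08) and by 0.22 ± 0.08 (adjusted p = 0.0177) in these comparisons, the second call being lost without X2 replicate 1 or X2-PDPN replicate 1 (highest adjusted p = 0.1003). Sema3g, a secreted semaphorin gene, fell by 1.34 ± 0.28 (adjusted p = 0.000547) and was at 0.23 ± 0.11 (adjusted p = 0.0813), passing the second test without X2-PDPN replicate 2 (adjusted p = 0.0491). The difference between the effects was -1.97 ± 0.34 for Scel, -0.84 ± 0.13 for Msra (adjusted p = 1.43e-06) and -1.57 ± 0.30 for Sema3g (adjusted p = 4.76e-05). Zfhx2, a zinc finger homeobox gene, fell by 1.51 ± 0.17 (adjusted p = 4.43e-07) with Ccr7 and by 0.99 ± 0.17 (adjusted p = 2.15e-06) without, and the difference did not pass the test (adjusted p = 0.0972). Ghitm, a mitochondrial inner membrane gene chosen after its values were seen, fell by 0.69 ± 0.07 (adjusted p = 1.06e-05) and by 0.49 ± 0.03 (adjusted p = 5.65e-20), again without a difference past the test (adjusted p = 0.0585).

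The difference between the PDPN effects was tested in a fit of all 24 libraries, with the effect in Ccr7 cells taken from batch 1 and that in X2 cells from batch 2, so that background, batch and the sort of the comparison cells cannot be told apart. Of 434 members, 163 passed an adjusted p under 0.05, 119 with a lower and 44 with a higher effect in the Ccr7 background, compared with 40.8% of all 13690 genes. Beyond a difference of 1 on the log2 scale there were 16 lower and 4 higher (5.44% of all genes). The largest of the named genes were Scara5 at -2.98 ± 0.51 (adjusted p = 1.19e-05), Erc2 at 2.35 ± 0.30 (adjusted p = 1.06e-07) and Scel at -1.97 ± 0.34 (adjusted p = 1.44e-05). Erc2 fell by 2.75 ± 0.22 in X2-PDPN compared with X2 (adjusted p = 3.9e-14), to 0.164, 0.392, 0.779 and 0.257 CPM, and by 0.40 ± 0.14 in CCR7-PDPN compared with CCR7 (adjusted p = 0.0238). The call in CCR7-PDPN was lost without CCR7 replicate 2, 3 or 4 or CCR7-PDPN replicate 2 or 4 (highest adjusted p = 0.109). Lmo7, a LIM domain protein gene of cell junctions chosen after its values were seen, fell by 1.11 ± 0.13 with PDPN in X2 cells (adjusted p = 8.51e-10) and rose by 0.76 ± 0.21 in CCR7 cells (adjusted p = 0.00687), a difference of 1.87 ± 0.26 (adjusted p = 2.38e-07). Loxl2 and Glud1 did not pass this test (adjusted p = 0.513 and 0.235). For Loxl2 nothing is drawn from this, because its CCR7 and CCR7-PDPN libraries held too few counts to measure a difference.

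**Figure D5:**
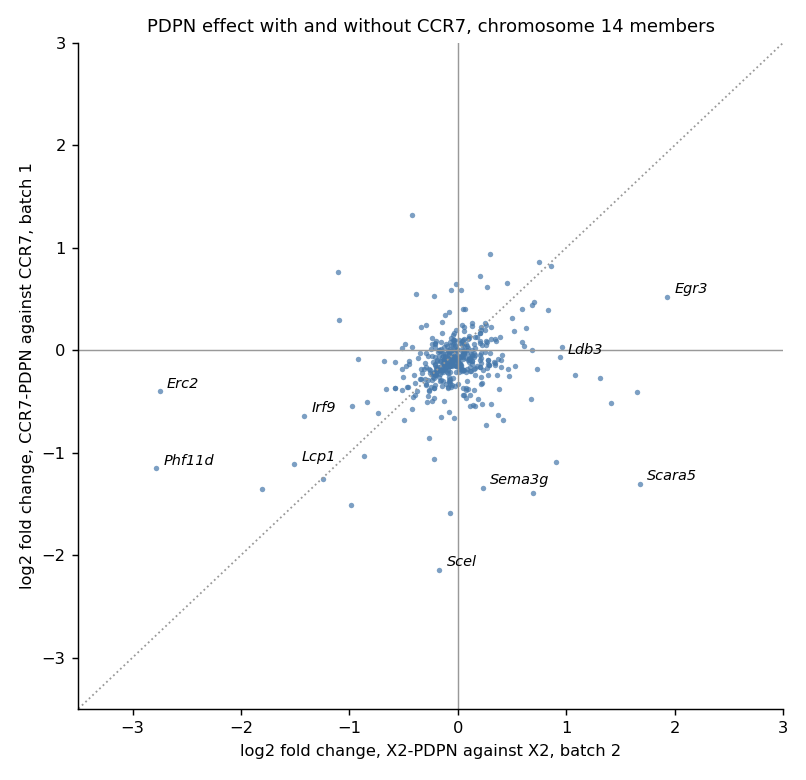
Log2 fold change of 423 chromosome 14 members with PDPN in X2 cells (horizontal axis, batch 2) and in CCR7 cells (vertical axis, batch 1); points are genes, the dotted line marks equal effects, and 9 genes are named. Most points lie near 0, Irf9, Phf11d and Lcp1 lie low on both axes, and Scara5, Egr3, Erc2 and Scel lie off the dotted line.

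Comparisons without a common library can be set side by side. CCR7-PDPN compared with X2 differed little between the batches, with a median absolute difference of 0.04 over 423 members, 371 of them within 0.2, and a Pearson r of 0.97. Same-numbered libraries of these groups deviated together, as given above, so this likeness does not measure independent repeats. Testing the difference between the batches with edgeR's quasi-likelihood test gave 0 of 434 members and 0 of 13690 genes at an adjusted p under 0.05 (0% called), while 10 members (2.30%) and 293 genes (2.14%) had an unadjusted p under 0.05. With DESeq2's size factors in the same test there were 9 and 293. CCR7 compared with X2 in batch 1 and CCR7-PDPN compared with X2-PDPN in batch 2 had a Pearson r of 0.83 and a Spearman rho of 0.60 over 423 members, with Loxl2 and the other far members among the points. The PDPN effects in the X2 and CCR7 backgrounds had a Pearson r of 0.25 and a Spearman rho of 0.27, and a Pearson r of 0.49 over the 331 members with a mean of at least 100 counts. These correlations are across genes that share libraries, depth and position on the chromosome.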

How the data were processed

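The 24 libraries were sequenced as stranded poly(A) RNA with single-end reads. The authors deposited raw read counts per gene, in 2 separate tables of counts per Ensembl gene on mm10; the header of the batch 1 table is that of featureCounts, and the batch 2 table lists 13915 genes. The aligner and strand setting are not given in the sources used here. Coordinates are those of the files (GRCm38/mm10), with gene symbols from GENCODE; 2515 of 2524 chromosome 14 genes had the same start and end in the reference.

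The members and the role lists were chosen with earlier results of these data known. Counts were fitted within each batch over its 3 groups with edgeR 4.0.16 in R 4.3.3 (TMM factors, filterByExpr, robust quasi-likelihood F-test, no replicate block), with Benjamini-Hochberg adjustment over all 13261 or 13314 genes tested. Members tested numbered 432 and 424. A gene was called at a change of 2-fold or more (log2 beyond 1) with an adjusted p below 0.05. The SE was the absolute log2 fold change divided by the square root of F. TPM used the gene lengths of the batch 1 table, and CPM and shares the total count of each library in its own table. The differences between PDPN effects and between batches came from 1 fit of 24 libraries (13690 genes, 434 members). The fits were tested on simulated data. Named genes were Loxl2 and, in each comparison, the 3 members farthest above and below the member median where the average log2 CPM reached 1. To these were added up to 4 per role list with the largest change in CCR7-PDPN compared with X2 of batch 1. Others were named after their values were seen. The 2 batches were compared only by their own fold changes. Replicate numbers did not pair the groups within a batch. No 2 replicates held identical counts in 36 pairs. Alternatives were other scalings, filters, fold limits, window sizes, a replicate block, DESeq2 1.42.0 and leaving out each library.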

Additional observations from a re-analysis of the deposited data

Results flagged for a closer look

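Over the named genes, the share of counts and the median shift, 234 groups of 4 libraries were tested for a library far from the other 3. In all, 12 were found, all in named genes. Chance gives about 1 in 20, and the number found is close to that rate. In X2 of batch 1 these were Erc2 at 3.58 CPM in replicate 1, Phf11d at 4.92 CPM, Ints6 at 75.1 CPM and Mycbp2 at 177 CPM, the last 3 all in replicate 4. In CCR7 cells they were Wdhd1 at 31.2 CPM in replicate 1, Ipo4 at 46.5 CPM in replicate 2 and Ldb3 at 2.90 CPM in replicate 3, and in CCR7-PDPN of batch 1 Mapk1ip1l at 97.7 CPM in replicate 2. In batch 2 they were Mycbp2 at 172 CPM in replicate 4 and Rb1 at 36.7 CPM in replicate 3 of X2, Mapk1ip1l at 201.5 CPM in replicate 2 of X2-PDPN and Rpgrip1 at 2.14 CPM in replicate 3 of CCR7-PDPN. Mycbp2 thus stood out in replicate 4 of X2 in both batches, whose same-numbered libraries deviated together.

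The PDPN effect differed between the CCR7 and X2 backgrounds by more than 1 on the log2 scale, at an adjusted p under 0.05 by edgeR's quasi-likelihood test, for 7 of the 37 named genes. The difference was -2.98 for Scara5, 2.35 for Erc2, -1.97 for Scel, 1.64 for Phf11d, -1.57 for Sema3g, -1.40 for Egr3 and -1.01 for Ldb3. The backgrounds were sequenced in different batches, and Phf11d, Scel and Scara5 rest on few counts in CCR7-PDPN cells.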

How the results depend on the processing

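The median shift of the chromosome kept its sign in every setting tried. In the order CCR7 and CCR7-PDPN compared with X2 and CCR7-PDPN compared with CCR7 in batch 1, then X2-PDPN and CCR7-PDPN compared with X2 and CCR7-PDPN compared with X2-PDPN in batch 2, the mean in place of the median gave -0.53, -0.67, -0.14, -0.026, -0.67 and -0.64. TMM factors from genes outside chromosome 14 gave -0.46 for CCR7 compared with X2, as did protein-coding members alone. Upper-quartile factors gave -0.022 for X2-PDPN compared with X2 and -0.55 for CCR7-PDPN compared with X2-PDPN, and the latter was -0.54 for genes with at least 1 CPM in 4 libraries and -0.52 for every gene with a count. Without the 10 members with the most counts, the shares were 2.30% in X2, 1.65% in CCR7 and 1.51% in CCR7-PDPN of batch 1, and 2.31%, 2.28% and 1.51% in X2, X2-PDPN and CCR7-PDPN of batch 2.

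Counts of calls rested on the fold limit. At an adjusted p under 0.05 alone, members lower and higher numbered 342 and 13, 360 and 13, 172 and 33, 130 and 104, 361 and 11, and 367 and 10 in the same order. The filter of at least 1 CPM in 4 libraries left 2, 1 and 1 members called higher in CCR7 compared with X2 and in CCR7-PDPN compared with X2 of batches 1 and 2, and 8 lower and 0 higher in CCR7-PDPN compared with CCR7. A fit of only the 2 groups compared also gave 0 higher there.

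Leaving out each library in turn, calls higher ranged from 2 to 5 in CCR7 compared with X2 (2 without CCR7 replicate 3), from 1 to 3 in CCR7-PDPN compared with CCR7 (3 without CCR7 replicate 1, CCR7 replicate 2 or CCR7-PDPN replicate 4), from 4 to 8 in CCR7-PDPN compared with X2 of batch 2 (8 without X2 replicate 2) and from 3 to 5 in CCR7-PDPN compared with X2-PDPN (5 without CCR7-PDPN replicate 1, X2-PDPN replicate 1 or X2-PDPN replicate 3). The median ranged from -0.46 to -0.44 in CCR7 compared with X2 and from -0.57 to -0.56 in CCR7-PDPN compared with X2 of batch 2. The sign turned for some small changes: Dhrs4 (-0.037 to 0.12) and Rpgrip1 (-0.082 to 0.14) in X2-PDPN compared with X2, Ldb3 (-0.18 to 0.041) and Wdhd1 (-0.079 to 0.033) in CCR7-PDPN compared with CCR7, Egr3 (-0.033 to 0.19 in batch 1 and -0.049 to 0.23 in batch 2) and Rpgrip1 (-0.17 to 0.054 in batch 2) in CCR7-PDPN compared with X2. The cause was not tested.

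Replicate numbers only name the libraries within a batch: the correlation of same-numbered deviations was -0.29 to 0.29 over 24 pairs, 5 of them over 0.1, and 6 libraries correlated best with their own number. With the replicate number as a block, members called lower numbered 39, 60, 12, 8, 58 and 60 and higher 4, 4, 1, 6, 4 and 3, and the medians were -0.45, -0.57, -0.11, -0.04, -0.58 and -0.53. Loxl2, which entered the members through X2 libraries where it was high, kept its direction and side of the threshold in all 119 settings tried. Nothing further is drawn from this. DESeq2 left 209 values of the named genes as they were, lost 6 calls (Zfhx2 and Phf11c in CCR7 compared with X2, Egr3 and Scara5 in CCR7-PDPN compared with CCR7, Tpm3-rs7 in X2-PDPN compared with X2 and Ldb3 in CCR7-PDPN compared with X2 of batch 2) and gained 1 (Glud1 in X2-PDPN compared with X2, adjusted p = 0.022 by DESeq2). Depth limits members such as Loxl2, Scel, Phf11d and Scara5, which held few counts in CCR7-PDPN libraries.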
